A study of Mus musculus with 9 samples.

Results

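S100 proteins are small calcium-binding proteins of the EF-hand family, and 8 of their genes were followed here through the whole-brain RNA-seq libraries of control, diabetic and baclofen-treated mice. The genes are S100b, S100a1, S100a13, S100a16, S100a10, S100a11, S100a6 and S100a4, which are 8 of the 53465 genes in the deposited table and 8 of its 18 S100 rows. The other 10 S100 rows were not followed as members, although S100a3, S100a8 and S100a9 among them had enough counts to be tested. The 8 genes were taken by symbol after S100a16 had been seen to differ between DNP and CON and between BAC and DNP. The values of S100a16 in the comparisons are therefore given as a description without a p-value. A filter on low counts kept 7 of the 8 genes for testing in edgeR, and S100a4 did not pass it.

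The libraries came from 3 CON, 3 DNP and 3 BAC mice, all male C57BL/6 and aged 7 weeks when they entered the study. The DNP and the BAC mice were given a diet with 60% fat for 4 weeks, then streptozotocin, which destroys pancreatic beta cells, at 50 mg/kg on each of 7 days, and were kept in the study at a fasting glucose of 16.7 mmol/L or more. Baclofen, which activates GABA-B receptors, was then injected into BAC mice at 8 mg/kg a day for 7 days, while CON and DNP mice received saline. Both diabetic groups were also selected by the authors for lowered pain thresholds, and the CON mice had neither the diet nor streptozotocin, so those exposures cannot be told apart. Each library is labelled whole brain and pools many cell types, so fewer cells of a type and less RNA per cell cannot be told apart. Markers of brain regions differed strongly between libraries, as described below.

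Most S100 proteins work as dimers that change shape when calcium binds and then attach to partner proteins such as annexins, myosins, ion channels and kinases. Some are also released from cells and bind the receptor RAGE (Ager) or TLR4. In brain, S100b is known as a protein of astrocytes and the oligodendrocyte lineage, S100a1 of neurons and glia, S100a10 of neurons, endothelium and other cells, and S100a4, S100a6 and S100a11 of fibroblasts and subsets of glia. S100a13 takes part in the release of FGF1, and S100a16 is a broadly expressed member.

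Of the 8 genes, 7 lie on mouse chromosome 3 in GRCm38 and S100b lies alone on chromosome 10. S100a1 (chr3:90511034-90514392, minus strand) and S100a13 (chr3:90514435-90524581, plus strand) start back to back with 42 bases between their annotated starts, and S100a16 (chr3:90537254-90543151, plus strand) begins 12672 bases beyond the end of S100a13. The 3 genes together span 32118 bases. S100a14, which lies between S100a13 and S100a16 at chr3:90526856-90528837, had at most 2 counts in any library. S100a4 (chr3:90603771-90606045), S100a6 (chr3:90612882-90624181), S100a11 (chr3:93520488-93526287) and S100a10 (chr3:93555080-93564643) follow on the same chromosome. S100b (chr10:76253853-76261159, plus strand) overlaps Dip2a on the opposite strand over 1731 bases, of which 0 are exonic in both genes.

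The stretch between S100a1 and S100a13 and the stretch before S100a16 are shown because these 3 genes had the clearest differences between groups. Both are plus-strand sequence of GRCm38.p6 from RefSeq, at chr3:90514381-90514446 and chr3:90537004-90537265. Capitals mark the first 12 transcribed bases at each start of the GENCODE annotation. In the first sequence the capitals at the left belong to S100a1, which is transcribed leftwards, and those at the right to S100a13. RefSeq places the start of S100a1 further inside the gene, at base 90514330.
S100a1 and S100a13: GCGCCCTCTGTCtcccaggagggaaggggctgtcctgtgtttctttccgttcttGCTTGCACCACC
S100a16: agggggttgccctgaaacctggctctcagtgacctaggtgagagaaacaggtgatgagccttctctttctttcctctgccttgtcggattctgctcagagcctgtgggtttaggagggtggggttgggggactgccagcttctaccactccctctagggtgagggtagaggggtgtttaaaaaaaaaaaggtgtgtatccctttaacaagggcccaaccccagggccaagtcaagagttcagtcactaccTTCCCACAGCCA

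RefSeq promoter windows of 300 bases were matched for 7 of the 8 genes and were searched on both strands for 7 short motifs, namely the TATA box (TATAAA), the CCAAT box (spelled as its name), the GC box (GGGCGG), the E-box (CACGTG), the AP-1 site (TGANTCA), the STAT site (TTCNNNGAA) and the core of the antioxidant response element (TGACNNNGC). The windows of S100a1 and S100a13 held none of these. The S100a16 window held a single match, to the antioxidant core, at bases 225 to 233 of the printed sequence on the minus strand. Such a match was present in 12.4% of the 32851 windows searched, and it is a description of the letters only.

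In every library S100b was the most abundant of the 8 transcripts per unit of length. Its level was 136 ± 87.1 FPKM (SD, n = 9), followed by S100a1 at 29.9 FPKM, S100a13 at 12.7, S100a10 at 11.3, S100a16 at 6.51, S100a11 at 4.89, S100a6 at 3.85 and S100a4 at 0.573 FPKM. S100b, S100a1 and the genes below them did not overlap over the 9 libraries, and S100a4 lay apart at the bottom. The neighbours from S100a13 to S100a6 overlapped, with S100a13 above S100a10 in 5 of 9 libraries, S100a10 above S100a16 in 8, S100a16 above S100a11 in 6 and S100a11 above S100a6 in 6.

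The place of S100a16 in this order depends on the length used. Its deposited FPKM divides by 5377 bases, while its exons cover 1617 bases and its 7 coding transcripts are 422 to 1127 bases long. For S100a1 the divisor is 1254 bases, its exons cover 694, and for S100b, S100a13 and S100a11 divisor and exon length are equal. On TMM-scaled CPM (CPM being counts scaled to the library size) per kilobase of the median coding transcript, S100a16 came after S100b and S100a1 with 39.8, against 134 and 59.7, and ahead of S100a10 with 31.5. This mean pools groups in which S100a16 differed. On the same scale S100a16 had 22.5 and S100a10 25.8 in CON, 59.5 and 34.0 in DNP, and 37.4 and 34.6 in BAC, so that S100a16 ranked 4 of 8 in CON and 3 in DNP and BAC. By FPKM it ranked 6 in CON and 5 in DNP and BAC. Comparisons between groups below use TMM-scaled CPM, in which the length plays no part.

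**Figure D1:**
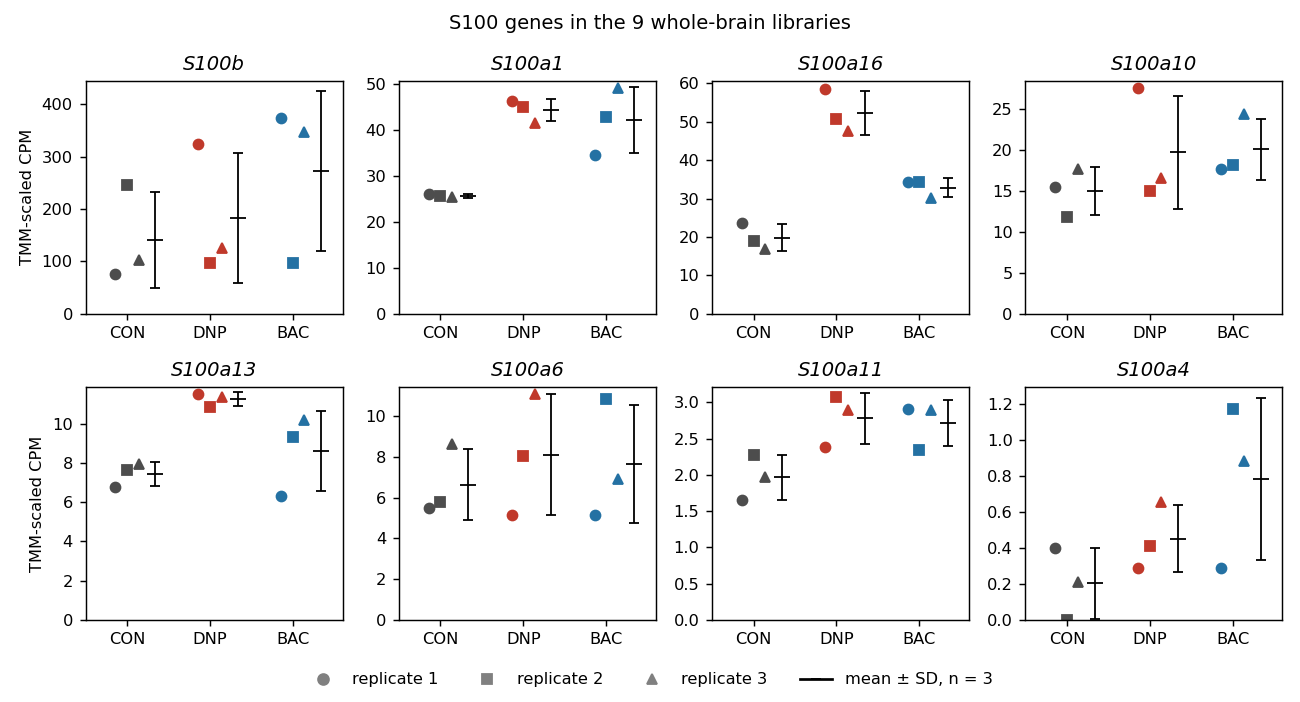
TMM-scaled CPM (vertical axes from 0) of the 8 S100 genes in the CON, DNP and BAC libraries, with 1 point per mouse, its shape giving the replicate number, and the mean ± SD of 3 mice beside them. The 3 groups of S100a16 form separate bands, the CON libraries of S100a1 sit together at 25.4 to 26.2 below all others, and S100b splits within each group into libraries from 75.0 to 126 and libraries from 246 upwards.

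S100a16 was higher in every diabetic library than in every control library. Its TMM-scaled CPM was 23.6, 18.8 and 16.8 in CON 1 to 3, and 58.5, 50.8 and 47.5 in DNP 1 to 3. The DNP mean was 2.65-fold the CON mean in the edgeR fit, a log2 difference of 1.40 (SE 0.17). The BAC libraries, at 34.2, 34.4 and 30.0, lay between the groups without touching either. They were lower than DNP by a log2 difference of -0.67 (SE 0.16) and higher than CON by 0.74 (SE 0.16). An order of DNP above BAC above CON with no overlap was found in 43 of 18501 genes tested, which is 0.232%, and since this order is what led to the choice of S100a16, the share is given as background only. The counts behind these values were 239 to 356 in CON, 723 to 808 in DNP and 471 to 498 in BAC.

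S100a1, which binds ryanodine receptors and the calcium pump of the sarcoplasmic reticulum in muscle, was also higher in both diabetic groups. Its CPM was 26.2, 25.6 and 25.4 in CON, 46.4, 45.1 and 41.6 in DNP, and 34.6, 42.9 and 49.2 in BAC. The CON libraries lay below all 6 diabetic libraries, while DNP and BAC overlapped. DNP exceeded CON by a log2 difference of 0.79 (SE 0.15), which did not pass edgeR's quasi-likelihood test (adjusted p = 0.294) but passed the Wald test of DESeq2 (adjusted p = 0.00657). BAC exceeded CON by 0.71 (SE 0.15), with adjusted p = 0.628 in edgeR and 0.0355 in DESeq2. On counts of 18501 genes simulated with the spread estimated by edgeR, DESeq2 made 54 false calls and edgeR 9. The simulation held no differences in brain region, so it does not give the rate of false calls in these data. Calls by DESeq2 alone are to be read with caution. The log2 difference between BAC and DNP was -0.07 (SE 0.15, edgeR adjusted p = 0.998).

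S100a13, whose start faces that of S100a1, had the same ranking of groups as S100a16 but smaller differences. Its CPM was 6.77, 7.63 and 7.94 in CON, 11.5, 10.9 and 11.4 in DNP, and 6.32, 9.32 and 10.2 in BAC. The DNP libraries lay above all CON and all BAC libraries, whereas BAC overlapped CON. The log2 difference between DNP and CON was 0.59 (SE 0.21, edgeR adjusted p = 0.380) and that between BAC and DNP was -0.38 (SE 0.21, edgeR adjusted p = 0.998), so neither passed.

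S100a1 and S100a13 ranked the BAC libraries alike, both lowest in BAC 1 and highest in BAC 3, but not the CON libraries, where S100a13 was lowest and S100a1 highest in CON 1. S100a16 was lowest in BAC 3, where the back-to-back genes were highest.

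Of the genes within 100 kb of S100a16, 9 were tested, and 4 of these are not S100 genes, namely Npr1, Ilf2, Snapin and Chtop. Their log2 differences between DNP and CON were -0.31, -0.05, 0.27 and -0.23, and in none of the 4 genes did the libraries of DNP and CON, BAC and DNP or BAC and CON lie apart, which over all genes is found in 18.2%, 6.79% and 13.4%, so little can be read from 0 of 4. S100a3, in the same window, had 1 to 17 counts per library and a log2 difference of 0.34 (SE 0.85). These neighbours were chosen by position after the values of the S100 genes had been seen.

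**Figure D2:**
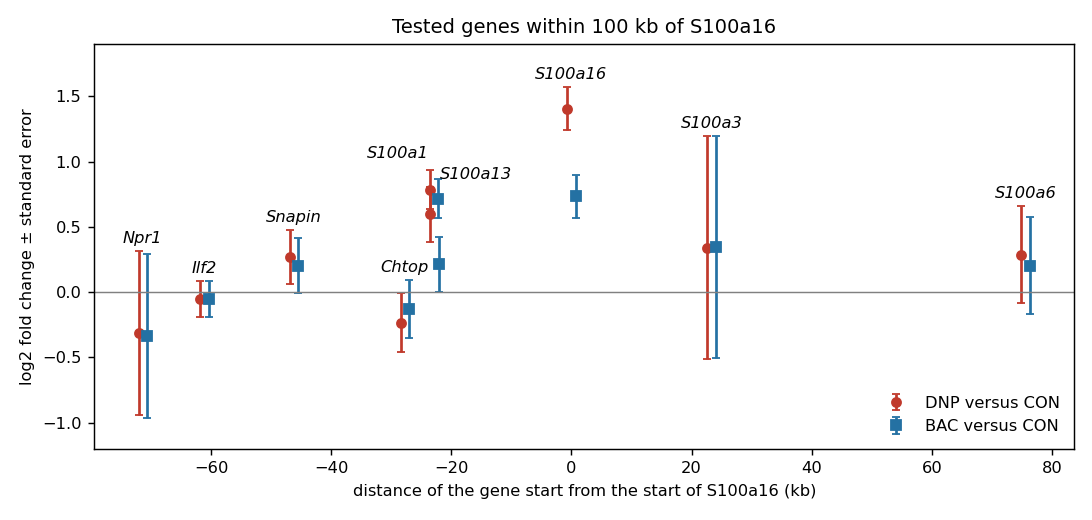
Log2 fold change with its standard error (vertical axis) of the 9 tested genes within 100 kb of S100a16, against the distance of each gene's start from that of S100a16 in kb (horizontal axis), for DNP versus CON (circles) and BAC versus CON (squares), which share the CON libraries. S100a16, S100a1 and S100a13 stand above 0 in DNP versus CON, with S100a1 and S100a13 at nearly the same position, while the 4 genes outside the family scatter around 0 between -0.34 and 0.27.

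S100a10, the partner of annexin A2 that helps carry channels and serotonin receptors to the membrane, was spread widely within DNP. Its CPM was 15.5, 11.8 and 17.7 in CON, 27.7, 15.0 and 16.6 in DNP, and 17.7, 18.2 and 24.4 in BAC. DNP overlapped CON, and its mean was raised by DNP 1. The log2 differences were 0.40 (SE 0.27, edgeR adjusted p = 0.619) for DNP versus CON and 0.42 (SE 0.27, edgeR adjusted p = 0.711) for BAC versus CON. BAC lay just above CON, by less than the last digit shown in BAC 1 and CON 3. Without DNP 1 the log2 difference between DNP and CON was 0.07.

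S100a11, a partner of annexin A1, was low in all groups. Its CPM was 1.66, 2.28 and 1.97 in CON, 2.39, 3.07 and 2.89 in DNP, and 2.91, 2.35 and 2.90 in BAC. The diabetic libraries lay above the CON libraries by a small margin, and the counts were only 25 to 46 per library. The log2 difference was 0.50 (SE 0.25, edgeR adjusted p = 0.484) between DNP and CON. In BAC versus CON it was 0.46 (SE 0.25, edgeR adjusted p = 0.672), and the libraries of these groups overlapped on deposited FPKM.

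S100a6, or calcyclin, which binds calcyclin-binding protein and annexin A11, did not separate the groups. Its CPM was 5.51, 5.77 and 8.64 in CON, 5.14, 8.06 and 11.1 in DNP, and 5.16, 10.8 and 6.93 in BAC. Each group held libraries near 5 and libraries above 6.9. The log2 differences were 0.29 between DNP and CON, -0.08 between BAC and DNP and 0.20 between BAC and CON, each with an SE of 0.37.

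S100a4, which binds non-muscle myosin, had counts of 6, 0 and 3 in CON, 4, 6 and 10 in DNP, and 4, 17 and 14 in BAC. The groups overlapped, and a count of 0 allows up to 3 counts, by counting error only. It was too low for the count filter of the edgeR fit, and DESeq2, which does not apply that filter, did not call it (adjusted p = 0.738 between DNP and CON, 1 between BAC and DNP and 0.595 between BAC and CON). Its annotated gene overlaps Gm42674 on the same strand, so its few reads may be shared.

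S100b had the highest level and the largest spread within groups. Its CPM was 75.0, 246 and 103 in CON, 325, 97.5 and 126 in DNP, and 374, 96.7 and 348 in BAC. Each group held libraries near 100 and at least 1 library above 200, so all groups overlapped. The log2 differences were 0.37 (SE 0.66, edgeR adjusted p = 0.879) for DNP versus CON, 0.58 (SE 0.66, edgeR adjusted p = 0.998) for BAC versus DNP and 0.95 (SE 0.67, edgeR adjusted p = 0.732) for BAC versus CON.

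S100b was highest where markers of brainstem and spinal cord were high and markers of forebrain were low. A score of brainstem and spinal cord markers, the mean log2 deviation of 9 genes such as Slc6a5, Glra1 and the Hox genes from their mean over all libraries, was 3.73 in DNP 1, 4.52 in BAC 1 and 4.58 in BAC 3, where S100b was 325 to 374 CPM. CON 2, with 246 CPM, had a score of -0.81 and the highest score of cerebellar markers (4.29). In the other 5 libraries the brainstem score was -2.62 to -1.94 and S100b was 75.0 to 126 CPM. Summed forebrain markers were 136 CPM in DNP 1, 74.8 in BAC 1, 72.6 in BAC 3 and 152 in CON 2. They were 366 to 564 in the other 5. Over the 9 libraries the Pearson r of S100b was -0.956 with the forebrain sum and 0.951 with the brainstem sum, both on a log2 scale. Which region goes with S100b was not tested. With the cerebellar sum the Pearson r of S100b was 0.739, on the same log2 scale. CON 3 had a cerebellar score of 1.71 and 103 CPM of S100b, and DNP 1 a score of 1.04 and 325 CPM. Among those 5 libraries S100b was 75.0 and 103 in CON, 97.5 and 126 in DNP and 96.7 in BAC. Although all libraries are labelled whole brain, the makeup by region thus differed between mice of the same group. It was also uneven between groups, since the libraries with high brainstem scores were DNP 1, BAC 1 and BAC 3, with none in CON. The part of this makeup in the other genes was not tested beyond the fits given next.

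With the scores of cerebellar and brainstem markers as covariates, the log2 difference between DNP and CON was 1.06 (SE 0.30) for S100a16, 0.56 (SE 0.29) for S100a1 and 0.54 (SE 0.45) for S100a13. Without CON 2, DNP 1, BAC 1 and BAC 3 it was 1.28 (SE 0.19), 0.75 (SE 0.12) and 0.59 (SE 0.20), respectively. All 3 differences kept their direction under each of 21 alternatives of processing or of libraries. The difference of S100a10 did not, being -0.34 (SE 0.43) with the covariates and -0.07 (SE 0.16) without the 4 libraries. With the covariates S100b differed by 1.25 (SE 0.37, edgeR adjusted p = 0.368), S100a11 by 0.99 (SE 0.49) and S100a6 by 0.57 (SE 0.54). Without the 4 libraries the difference of S100b was 0.33.

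**Figure D3:**
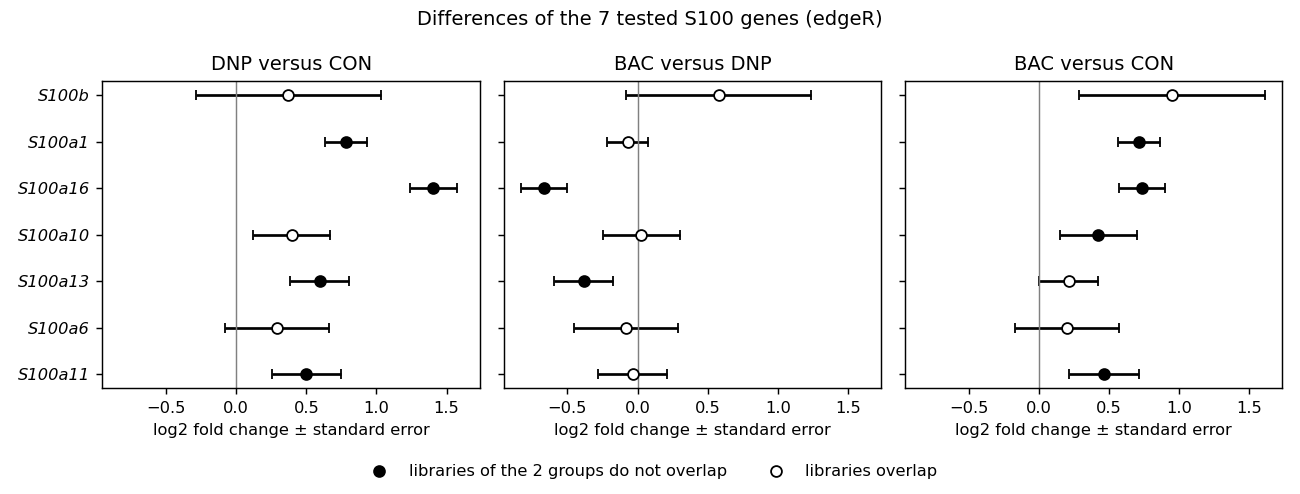
Log2 fold change with its standard error (horizontal axes) of the 7 tested S100 genes from edgeR, with a panel for each of the 3 comparisons between groups, with filled points where the libraries of the 2 groups do not overlap in TMM-scaled CPM. S100a16 lies farthest from 0 in DNP versus CON (1.40) and below 0 in BAC versus DNP (-0.67), while S100b has the widest errors (SE 0.66 and 0.67).

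Over the 8 genes, the DNP libraries lay above all CON libraries in 4, namely S100a16, S100a1, S100a13 and S100a11, and below them in 0. Of all 18501 genes tested, 9.59% had DNP above CON without overlap, 8.63% had DNP below CON, and 18.2% lay apart in either direction. S100a16 was chosen for this difference, and the other genes were listed with earlier results of these data known. The shares are therefore given as background, and the counts are no test of the 8 genes. The median log2 difference of the 7 tested genes was 0.50, against 0.01 over all genes. Between BAC and DNP, 2 of the 8 genes lay apart, S100a16 and S100a13, both lower in BAC, where the background is 3.41% of genes lower in BAC, 3.38% higher and 6.79% in either direction. Their median was -0.07, against -0.01 over all genes. Between BAC and CON, 4 genes lay apart, S100a16, S100a1, S100a10 and S100a11, all higher in BAC, against 7.21% of all genes higher, 6.23% lower and 13.4% in either direction, with medians of 0.46 and -0.02. The 3 comparisons share libraries, so these counts are not independent of each other. Outside the 8 genes, S100a3 and S100a8 passed the filter and overlapped in each comparison. S100a9 also passed it and lay apart only between BAC and CON, higher in BAC.

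After Benjamini-Hochberg adjustment of the quasi-likelihood test of edgeR, 0 of the 18501 genes passed in any comparison, which is 0%, and none of the S100 genes did. Leaving out S100a16, which was chosen for its differences, edgeR had an unadjusted p under 0.05 for 2 of 6 S100 genes between DNP and CON, S100a13 and S100a1 (11.2% of all genes), for 0 between BAC and DNP (2.37%) and for 1 between BAC and CON, S100a1 (7.76%). DESeq2, which also gave S100a4 an adjusted p, called 1 of 7 such genes between DNP and CON, S100a1, against 1.45% of genes. It called 0 between BAC and DNP, against 0.00856%, and 1 between BAC and CON, again S100a1, against 0.415%. Here too the shares are background only, since the S100 genes were chosen with earlier results known.

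Markers of several cell types moved with the S100 genes between groups, and their part in the differences was not tested. The summed CPM of 8 oligodendrocyte markers was 1884 to 2511 in CON, 3081 to 7504 in DNP and 2327 to 7719 in BAC. Of these, 8 of 8 were higher in DNP than in CON, with a median log2 difference of 1.24. Each had an unadjusted p under 0.05 in edgeR, against 11.2% of all genes in either direction, and 0 passed after adjustment. In BAC 2 these markers summed to 2327, inside the range of CON, while S100a16 was 34.4 CPM there, above each CON library, and S100a1 was 42.9. Within DNP they ranged from 3081 in DNP 2 to 7504 in DNP 1, with S100a16 at 50.8 and 58.5. Over the 9 libraries the Pearson r with the oligodendrocyte sum, on a log2 scale, was 0.652 for S100a16 and 0.695 for S100a1.

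Erythroid markers separated the groups in the same way as S100a1. The summed CPM of 5 genes of haemoglobin and heme synthesis was 188 to 218 in CON, 477 to 683 in DNP and 471 to 735 in BAC. DESeq2 called 5 of the 5 genes higher in DNP versus CON, against 1.45% of all genes called in either direction. It also called 5 higher in BAC versus CON, against 0.415%, and edgeR called 0 in both. S100a1 was highest in BAC 3 (49.2), the library with the highest erythroid sum, and lowest in the 3 CON libraries. Over the 9 libraries the Pearson r with the erythroid sum, on a log2 scale, was 0.961 for S100a1 and 0.831 for S100a16. Microglial markers summed to 138 to 242 in CON, 267 to 307 in DNP and 221 to 339 in BAC, and meningeal fibroblast markers, from a cell type that expresses S100a4, S100a6 and S100a11, to 126 to 144, 80.5 to 105 and 122 to 170. Summed astrocyte markers were 4013 to 4825 in CON, 3186 to 4408 in DNP and 4512 to 4681 in BAC. In these 5 lists no marker was at 0 in any library. Mitochondrial genes took 4.34 to 5.36% of the counts in CON, 6.68 to 7.01% in DNP and 5.94 to 7.23% in BAC, which separates all CON libraries from all diabetic libraries, as S100a16 and S100a1 do, and its part in their differences was not tested. Neutrophil markers were low, at 0.597 to 3.09 in CON, 1.05 to 16.7 in DNP and 2.28 to 6.90 in BAC.

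**Figure D4:**
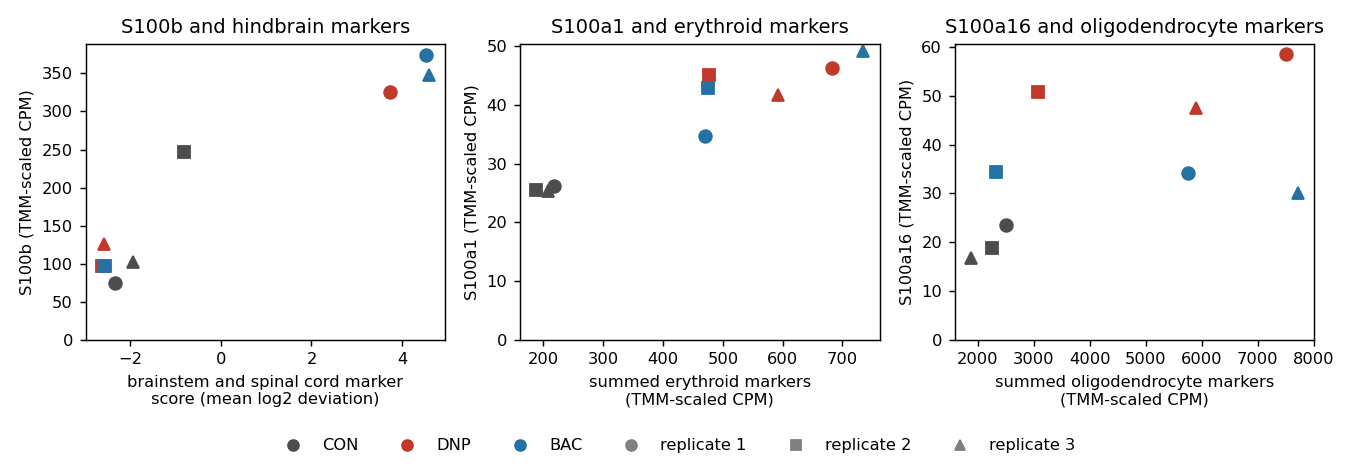
S100b against the brainstem and spinal cord marker score (left), S100a1 against the summed erythroid markers (middle) and S100a16 against the summed oligodendrocyte markers (right), with 1 point per library, colour for the group and shape for the replicate, and all levels in TMM-scaled CPM. The 3 libraries with brainstem scores above 3 hold the highest S100b, the 3 CON libraries are lowest in both quantities of the middle panel, and BAC 2 has S100a16 above CON at an oligodendrocyte sum within the CON range.

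The genes most like each S100 gene were taken as those with the highest Pearson r of log2 CPM over the 9 libraries among 16783 genes with a mean of at least 1 CPM. For S100a16 they were Gm23935 (r = 0.947), the siderophore-binding protein gene Lcn2 (0.944), the aldose reductase gene Akr1b3 (0.943), the ATP synthase subunit gene Atp5o (0.939) and Lrg1 (0.931). Without CON 2 and CON 3, the libraries farthest from its median, r was 0.865 to 0.902, and within groups it was 0.337 to 0.786, so a large share of the likeness was the difference between groups. For S100a1 they were Rpl22l1 (0.986), the alpha-globin gene Hba-a1 (0.975) and Ndufb4c (0.970). For S100b they were Cd38 (0.988), Aldh1a1 (0.986) and Dars (0.983), each with r above 0.98 within groups. S100a13 was most like Sh3gl2, Gm8730 and Uqcrb (0.947 to 0.953), S100a10 like Atxn10, Casz1 and Plpp1 (0.961 to 0.977), S100a11 like BC022960, Emp1 and Chchd1 (0.920 to 0.979), and S100a6 like Dctd (0.946) and Col6a4 (0.937). These values describe the 9 libraries and were not tested.

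Partners and receptors of S100 proteins were mostly lower in DNP than in CON by small amounts. Their summed CPM was 3071 to 3896 in CON, 2501 to 2946 in DNP and 2443 to 3196 in BAC, so that DNP lay below CON. The sum leans on abundant genes, since Atp2a2 alone had a mean of 1158 CPM in CON and 764 in DNP. Of the 30 genes, 21 had a lower and 9 a higher estimate in DNP, where 51.4% of all genes had a higher one. In 5 of the 30 genes the DNP libraries lay below all CON libraries (8.63% of all genes) and in 2 above them (9.59%). Of these 30 genes edgeR called 0 in each comparison, and at an unadjusted p under 0.05 it counted 1 higher and 3 lower when DNP was set against CON, 0 for BAC against DNP, and 1 higher and 4 lower for BAC against CON, where the shares of all genes in either direction are 11.2%, 2.37% and 7.76%. The median log2 differences were -0.13, 0.01 and -0.12 in the same order. In DNP versus CON the smallest p belonged to Ryr2, a ryanodine receptor that S100a1 binds, with a log2 difference of -0.64 (SE 0.17) that passed DESeq2 (adjusted p = 0.0271) and not edgeR. Next were the calcium pump gene Atp2a2 at -0.60 (SE 0.20) and the non-muscle myosin gene Myh10 at -0.45 (SE 0.17). In BAC versus DNP they were Asic1 (0.37), Htr1b (0.44) and Anxa11 (-0.77). In BAC versus CON they were Ppp5c (-0.36), Ryr2 (-0.47) and Anxa2, the annexin partner of S100a10, at 0.97 (SE 0.31), with 14.4 ± 3.72 CPM in BAC and 7.38 ± 0.898 in CON (SD, n = 3 each).

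Other EF-hand genes, among them those of calbindin and neuronal calcium sensors, were likewise without an adjusted call. Of 23 genes 22 were tested, and edgeR called 0 in each comparison. At an unadjusted p under 0.05 it counted 2 of 22 lower and 0 higher in DNP versus CON, and 0 in the other comparisons. The share of all genes in DNP versus CON is 11.2% in either direction. The median log2 differences were -0.15 between DNP and CON, -0.05 between BAC and DNP and -0.27 between BAC and CON. The smallest p in DNP versus CON belonged to Calb1 (-1.72), a buffer abundant in Purkinje cells, Caln1 (-0.85) and Hpcal1 (-1.24), in BAC versus DNP to Calb1 (1.10), Caln1 (0.55) and Necab3 (-0.64), and in BAC versus CON to Kcnip3 (-0.47) and Ncald (-0.86). Summed cerebellar markers ranged from 111 to 5666 CPM in CON, from 79.3 to 539 in DNP and from 75.3 to 2865 in BAC, and their part in the differences of Calb1 was not tested.

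The remaining 10 S100 rows were low, except for S100a5 in DNP 2. S100a8 and S100a9, which neutrophils express, had 3 to 52 and 0 to 86 counts per library, and S100a3 was the only other one to pass the filter. S100a5, known from olfactory sensory neurons, had 198 counts in DNP 2, 15 in BAC 2, 5 in DNP 3 and 0 in the other 6 libraries. Its level in DNP 2 was 23.2 FPKM, above that of S100a13 there (15.2 FPKM). S100a7a reached 10 counts, and S100a2, S100g and S100a14 at most 2, while S100z and S100a11-ps had none in any library.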

How the data were processed

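The authors sequenced poly(A) RNA from the whole brain of 9 mice, 3 each of CON, DNP and BAC, as non-strand-specific paired-end libraries. The authors filtered reads with fastp, aligned them to GRCm38 with HISAT2 2.1.0 and quantified genes with StringTie 1.3.3b. The deposited counts are raw whole numbers per gene, and the deposited FPKM values equal the count divided by a gene length and the library total (the length varied by a ratio of at most 1.000417 between libraries over 13778 genes checked), so they carry no TMM factor. The treatment of multiply mapped reads is not given in the sources used here. Totals were 13107382 to 16008129 counts per library. Libraries of the same group differed by more than counting error (chi-square per degree of freedom 15.1 to 116), so none was counted as a duplicate.

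Counts were analysed in R 4.3.3 with edgeR 4.0.16. Genes were kept by filterByExpr (minimum count 10), which left 18501 of 53465, scaled by TMM and fitted with the 9 libraries in a single quasi-likelihood model with group as the factor. Tests were two-sided with Benjamini-Hochberg adjustment over all genes tested and a threshold of 0.05. DESeq2 1.42.0, the tool of the study, and limma 3.58.1 on log2(FPKM + pseudocount), with pseudocounts of 1 and 0.1, were alternatives, as were other scalings and filters, a replicate block, region scores as covariates and leaving out each library in turn. The script was tested on simulated counts in which 200 of 18501 genes differed between DNP and CON by a log2 difference of 2 in size. There edgeR recovered 54.5% of the 200 genes with 9 false calls. DESeq2 recovered 74% with 54 false calls. Positions came from GENCODE M21 and promoter sequences from RefSeq, both GRCm38. The biological coefficient of variation was 36.5%, which with 3 mice per group sets the precision.

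The S100 genes and the lists of partners, EF-hand genes and markers were chosen with earlier results of these data known. Named outside the 8 genes were the other S100 rows, the 3 genes of each list with the smallest p, the genes most like each S100 gene (5 for S100a16, 3 for each other), marker genes, and neighbours of S100a16 chosen after their values were seen. Of these, 2 genes are not reported here.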

Additional observations from a re-analysis of the deposited data

How the results depend on the processing

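Each group held 3 mice, and brain-region markers differed between libraries of a group. Over the 21 alternatives, the log2 difference of S100a16 kept its direction in each comparison, with 1.06 to 1.55 in DNP versus CON, -0.73 to -0.50 in BAC versus DNP and 0.41 to 0.88 in BAC versus CON, and S100a1 stayed between 0.56 and 0.83 in DNP versus CON. DESeq2 called 281 genes between DNP and CON, 3 between BAC and DNP and 89 between BAC and CON, and 1 partner gene in the first of these, where edgeR called 0. With each library left out in turn, edgeR called 0 to 1, 0 to 0 and 0 to 1 genes in that order (1 without CON 2 or without CON 3), and 4 to 5, 2 to 3 and 4 to 6 of 8 S100 genes lay apart, against 18.2 to 32.7%, 6.79 to 30.5% and 13.4 to 35.2% of all genes tested. Without DNP 1, BAC 1 and BAC 3 together, which leaves a single BAC library, 6 lay apart between BAC and DNP and 7 between BAC and CON, but so did 67.7% and 50.5% of all genes, and nothing is read from these counts. By its mean over the 9 libraries S100a16 ranked 5 of 8 by FPKM and 3 by CPM, with or without division by the median coding transcript, and its rank by CPM was 3, 2 and 3 in CON, DNP and BAC. The division by transcript length and the fit without 4 libraries were chosen after seeing the data.

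Reversals were limited to S100a10, S100b, S100a6, S100a11 and S100a1, all short of the threshold, and their cause was not tested. With region covariates, S100a10 was -0.34, -0.062 and -0.41 in that order, and in BAC versus DNP S100a6 was 0.24 and S100b -0.28. Without DNP 1, BAC 1 and BAC 3, S100b was -0.35, -0.21 and -0.56 in the 3 comparisons and S100a6 0.18 in BAC versus DNP. Without CON 2 as well, S100a10 was -0.072 in DNP versus CON, and S100a6 and S100b were 0.19 and -0.20 in BAC versus DNP. The 4 libraries left out there hold the highest S100b, and BAC is then a single library, assumed to vary like the others in both of these fits. With single libraries left out, DNP versus CON gave -0.34 (without DNP 1) to 1.04 for S100b and -0.0089 (without DNP 3) to 0.53 for S100a6. BAC versus DNP gave -0.13 (without BAC 3, and likewise below 0 without DNP 2 or DNP 3) to 0.35 for S100a10, -0.42 to 0.21 (without DNP 3, and above 0 without BAC 1) for S100a6, -0.13 to 0.058 (without BAC 2, and above 0 without DNP 2) for S100a11 and -0.19 to 0.056 (without BAC 1) for S100a1. BAC versus CON gave -0.14 (without BAC 2) to 0.44 for S100a6.

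Deviations of same-numbered libraries from their group means correlated from -0.579 to 0.560, and 2 of 9 libraries correlated best with their own number. Libraries of the same group differed in brain-region markers, so these values cannot decide whether replicate numbers pair the mice. With a replicate block edgeR called 0 genes in each comparison, 1688, 382 and 1203 genes had an unadjusted p under 0.05, and S100a16 differed by 1.41 between DNP and CON.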
